A study of Mus musculus with 2 samples.

Results

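Complement is a cascade of serum and cell-surface proteins that tags cells, lipoproteins and debris for removal. In the classical pathway, C1q, built from the products of C1qa, C1qb and C1qc, binds its target and its proteases C1r and C1s cleave C4 and C2. In the alternative pathway, factor B (Cfb) binds C3b and is cleaved by factor D (Cfd, adipsin), and both arms meet at C3, the central component. C5ar1 is the receptor of leukocytes for the fragment C5a. Most circulating complement is made by the liver, but macrophages, fibroblasts and fat cells also make components locally.

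The 9 complement genes C1qa, C1qb, C1qc, C1ra, C3, C4b, Cfb, Cfd and C5ar1 were taken by symbol from the 31053 genes of the counts. Cells of the aortic arch had been counted in 1 library per diet, and both groups were male Apoe-/- mice on a C57BL/6 background at 16 weeks of age, which lack apolipoprotein E and build up cholesterol in plasma. The ND group ate chow, and the HFD group ate a food rich in fat and cholesterol from weaning on. Each library pooled the cells of 2 aortas without sorting. With 1 library per diet no difference between diets could be tested, and the 95% intervals below cover counting error only, not the spread between mice.

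After the filter 5416 ND and 2739 HFD cells remained, with 3732.5 and 5336 UMIs (counted RNA molecules) per cell and 16.8% and 21.9% mitochondrial UMIs at the median. The libraries shared 39 barcode sequences, 1 of them among kept cells. Cells were put in classes by the number of class markers with a UMI, and no complement gene described here was a marker. The largest classes were endothelial (2348 ND and 1138 HFD cells), fibroblast (973 and 410) and macrophage cells (323 and 446). Markers of 2 or more classes met in 613 ND and 555 HFD barcodes, called mixed here and kept apart. Smooth muscle and other mural cells, which fill the wall of an artery, were few, with 27 and 9 cells, and 52 ND but no HFD barcodes carried markers of airway club cells.

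In the GENCODE M21 annotation of GRCm38, C1qa, C1qb and C1qc lie side by side on the minus strand of chromosome 4 within 18675 bases, from 136880129 to 136898803. C4b (34728380 to 34743882) and Cfb (34856374 to 34862518) lie on the minus strand of chromosome 17, as does C3 (57203970 to 57228136). C1ra is on chromosome 6 (124512405 to 124523443), C5ar1 on chromosome 7 (16246743 to 16259540) and Cfd on chromosome 10 (79890853 to 79892655). Cfb and C2 both overlap Gm20547 in the annotation, which had 0 UMIs in the counts, and reads in the overlap may be missing from Cfb and C2. C4b and C1ra have close copies, C4a and C1rb, and reads that fit both copies may be missing from their counts. C4a was not analysed here, and C1rb had 2 UMIs over all gated cells.

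The 250 bases before the start of C1qb, C3 and Cfd are given because most UMIs of these genes lay in different classes, macrophages, fibroblasts and fat cells. They come from RefSeq on GRCm38.p6, at chr4:136886201-136886450 (minus strand), chr17:57228137-57228386 (minus strand) and chr10:79890603-79890852 (plus strand), and are written in the direction of the gene.
C1qb: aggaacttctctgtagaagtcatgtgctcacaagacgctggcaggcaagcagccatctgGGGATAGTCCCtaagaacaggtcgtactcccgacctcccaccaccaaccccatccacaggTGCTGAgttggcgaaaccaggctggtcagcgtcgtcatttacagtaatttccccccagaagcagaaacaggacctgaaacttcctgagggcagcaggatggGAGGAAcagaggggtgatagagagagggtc
C3: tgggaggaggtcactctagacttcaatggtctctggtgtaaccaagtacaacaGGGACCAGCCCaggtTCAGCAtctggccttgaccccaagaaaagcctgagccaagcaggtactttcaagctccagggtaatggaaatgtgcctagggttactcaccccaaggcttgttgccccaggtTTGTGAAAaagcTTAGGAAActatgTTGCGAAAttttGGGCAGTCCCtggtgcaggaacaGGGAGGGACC
Cfd: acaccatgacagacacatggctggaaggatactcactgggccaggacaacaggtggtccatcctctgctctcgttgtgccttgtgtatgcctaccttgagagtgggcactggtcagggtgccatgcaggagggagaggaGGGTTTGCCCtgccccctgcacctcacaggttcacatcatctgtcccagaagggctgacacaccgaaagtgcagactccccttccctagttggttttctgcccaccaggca
Capitals mark matches, on either strand, to 5 short motifs. The MAF half-site was searched as TGCTGA. The PU.1 core, read by a factor of myeloid cells, was searched as GAGGAA. The TATA box was searched as TATAAA. The C/EBP-type motif was searched as TTNNGNAA, and the kappaB-type motif as 3 G and 2 C with any 5 bases between. The C/EBP-type letters occurred 3 times before C3, at 70 to 63, 58 to 51 and 45 to 38 bases before the start, and not before C1qb or Cfd. The MAF half-site and the PU.1 core both occurred before C1qb, at 131 to 126 and 30 to 25 bases before the start, and a MAF half-site also occurred before C3 on the other strand, at 182 to 177. The kappaB-type letters occurred in all 3 windows, the TATA box in none of them. Before C1qb and at the first kappaB-type site before C3, 2 matches shifted by 1 base overlap each other. Of 32851 promoter windows of the same length, 16.1% held the MAF half-site, 23.3% the PU.1 core, 36.8% the C/EBP-type letters, 45.8% the kappaB-type letters and 12.4% the TATA box, so single matches are common.

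**Figure D1:**
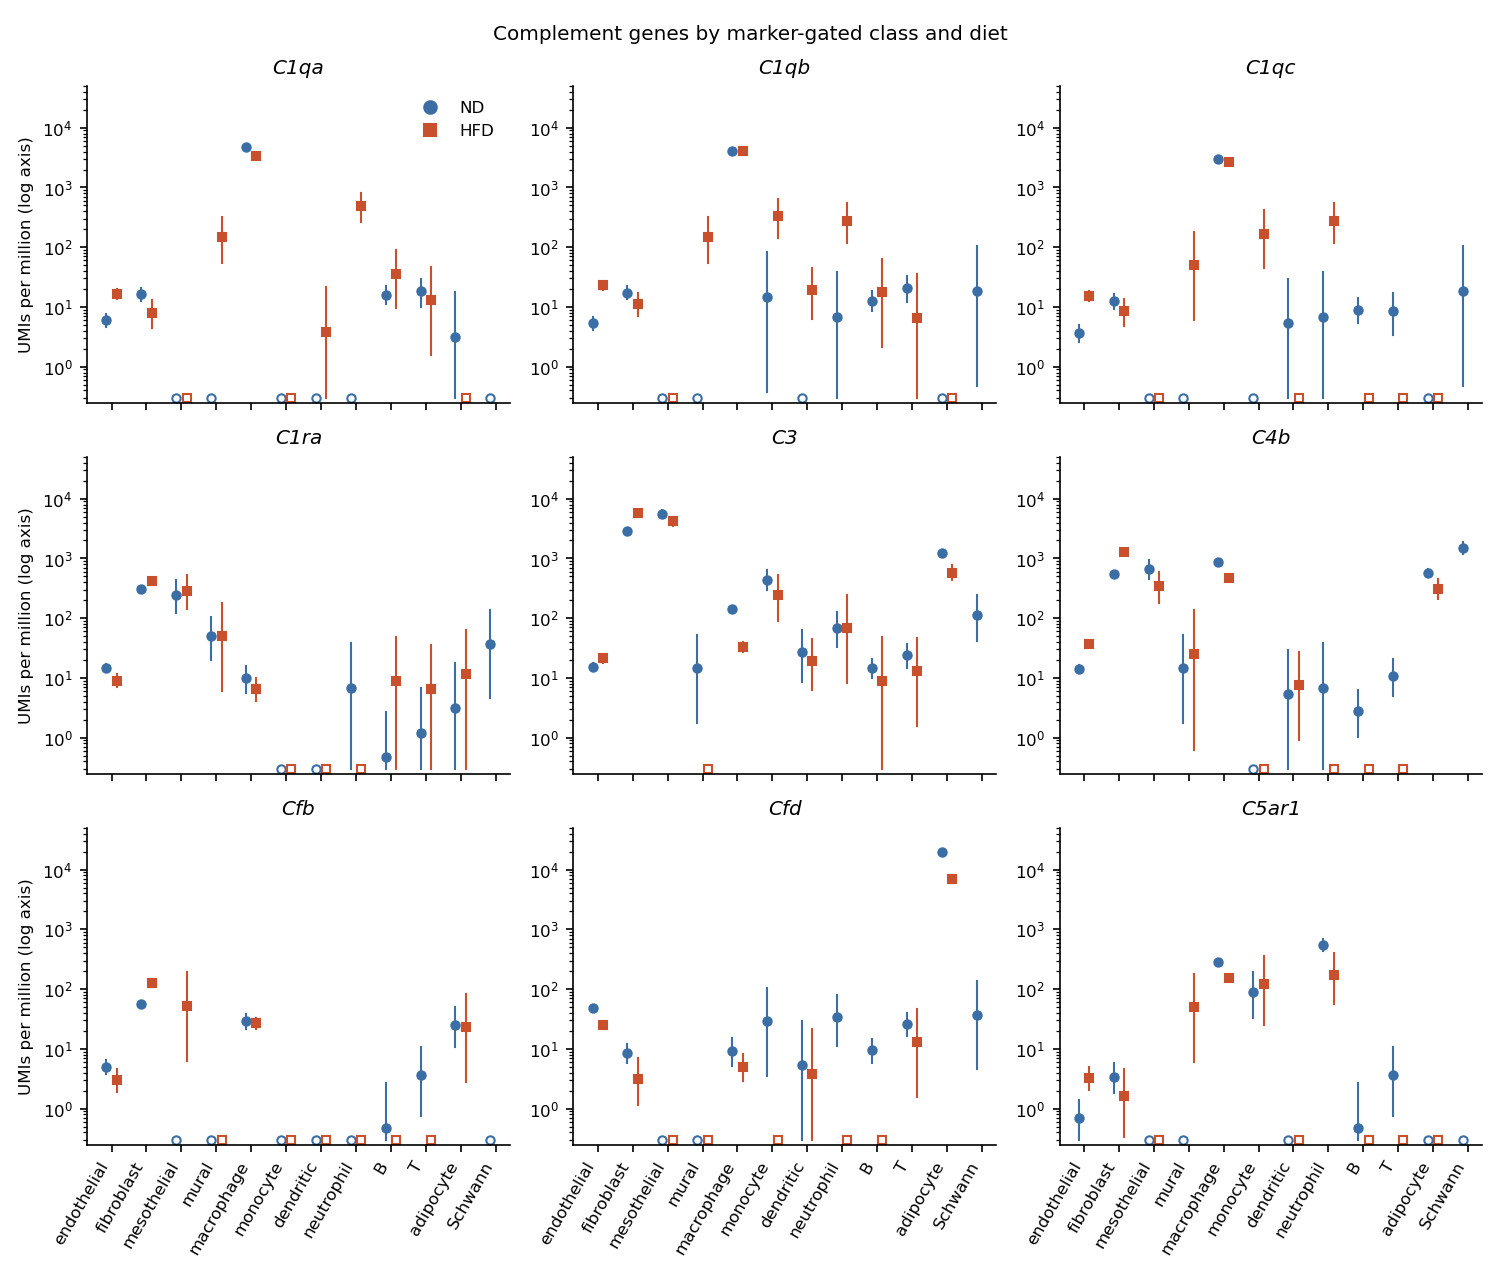
Counts of UMIs per 1000000 UMIs (CPM, log axis) of each complement gene in 12 classes with at least 5 cells, ND in blue circles and HFD in red squares, with exact 95% Poisson bars. Open marks at the foot are classes with 0 UMIs. C1qa, C1qb and C1qc stand at 2640 CPM or more in macrophages and below 500 CPM in every other class drawn, C3 is highest in fibroblasts and mesothelial cells, and Cfd in adipocytes.

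The C1q genes, which encode the recognition molecule of the classical pathway, were macrophage genes in both libraries. C1qa was at 4701 CPM (UMIs per 1000000 UMIs of the class, 95% interval 4595 to 4808) in ND macrophages and at 3425 (3360 to 3490) in HFD macrophages. C1qb was at 4097 (3999 to 4197) and 4045 CPM (3975 to 4116), and C1qc at 3022 (2938 to 3108) and 2640 CPM (2584 to 2698). Together they took 1.18% of all UMIs of ND macrophages and 1.01% in HFD. All 3 genes had a UMI in 306 of 323 ND macrophages (94.7%, exact interval 91.7 to 96.9) and in 404 of 446 in HFD (90.6%, 87.5 to 93.1). The next class among those with over 20 cells in both libraries was at or below 23.0 CPM for each gene. Classes of 6 to 9 HFD cells reached 481 CPM, such as C1qa in neutrophils, where 1 cell held all 14 UMIs.

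Macrophages held 80.0% of the C1q UMIs of kept ND cells and 77.6% in HFD, and mixed barcodes held 17.5% and 21.0%. In endothelial cells, which should lack C1q, C1qa had a UMI in 2.002% of ND cells at a median depth of 3556.5 UMIs and in 5.80% of HFD cells at 5336.5 UMIs. The level there was 6.01 and 16.6 CPM, and C1qb at 5.31 and 23.0 CPM moved with it. After each cell was thinned to 1000 UMIs the shares for C1qa were 0.642% and 1.67%, with 13 ND and 0 HFD endothelial cells too shallow to be thinned. Within each library the C1q genes of endothelial cells kept the proportions of the macrophages within their intervals, with C1qa at 40.1% of the C1q UMIs (32.7 to 47.9) in ND endothelial cells and 39.8% (39.1 to 40.5) in ND macrophages. In HFD these shares were 30.4% (25.8 to 35.2) and 33.9% (33.4 to 34.4). Whether the C1q UMIs of endothelial cells came from RNA of macrophages or from expression in these cells was not tested.

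**Figure D2:**
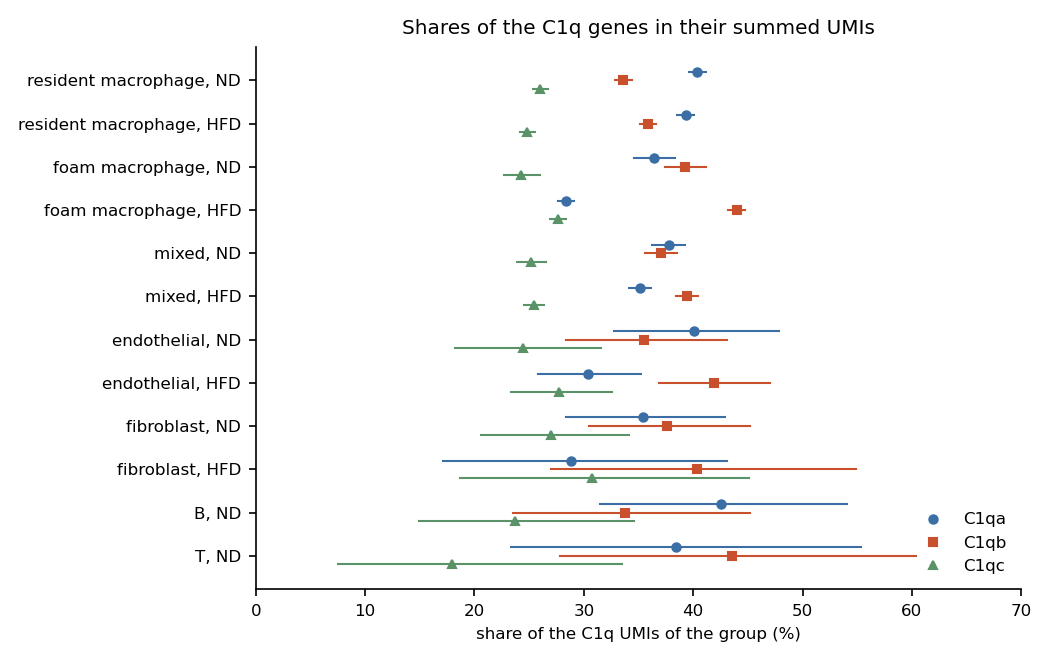
Share (%) of C1qa (blue circles), C1qb (red squares) and C1qc (green triangles) in the summed C1q UMIs of each group of cells and library, with exact 95% binomial bars. C1qa leads in resident macrophages of both diets at 40.4% and 39.3%, while C1qb leads in HFD foam macrophages at 44.0%.

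Macrophages were divided into resident cells, with markers such as Lyve1 and Folr2 of the long-lived macrophages of the vessel wall, and foam cells, with markers such as Gpnmb and Trem2 of lipid-laden macrophages. Resident cells were 244 of 323 ND macrophages (75.5%) and 234 of 446 in HFD (52.5%), and foam cells were 49 (15.2%) and 187 (41.9%). C1qa was lower in foam than in resident cells in both libraries, at 2967 against 5377 CPM in ND and 2496 against 4787 CPM in HFD, a resident-to-foam ratio of 1.81 (1.69 to 1.94) and 1.92 (1.84 to 1.99). For C1qb this ratio was 1.40 (1.31 to 1.498) in ND but 1.13 (1.09 to 1.17) in HFD, and for C1qc 1.75 (1.61 to 1.91) and 1.25 (1.19 to 1.30).

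The balance among the 3 genes differed between the subgroups. C1qa made up 40.4% of the C1q UMIs (39.6 to 41.1) in ND resident cells and 39.3% (38.5 to 40.1) in HFD resident cells. In foam cells it made up 36.4% (34.6 to 38.3) in ND and 28.4% (27.7 to 29.1) in HFD, where C1qb made up 44.0% (43.2 to 44.8). The C1qa share of HFD foam minus resident cells was -10.9 percentage points, and their counting intervals did not overlap. Cells varied widely within each subgroup: the middle HFD foam cell had 7894 CPM of the 3 genes together against 12175 CPM in HFD resident cells. No C1q UMI was found in 7 of 49 ND foam cells and 13 of 187 HFD foam cells, against 3 of 244 and 7 of 234 resident cells.

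Between diets, the summed C1q genes of macrophages were at 11819 CPM in ND and 10110 CPM in HFD, a log2 HFD/ND ratio of -0.23 (-0.25 to -0.20), beside a median of -0.10 over 7044 genes compared in macrophages. The ratio was -0.13 (-0.16 to -0.10) in resident and 0.11 (0.05 to 0.17) in foam cells. With HFD subgroups given the weights they have in ND, a calculation chosen after the data had been seen, it was -0.09. Foam cells made up a larger share of macrophages in HFD, and their part in the lower pooled value was not tested. Foam cells were also deeper in HFD (8319 UMIs per cell at the median) than in ND (5001), and with each macrophage thinned to 1000 UMIs the class ratio was -0.24.

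C4b, the isotype of component C4 that classical activation cleaves, separated the macrophage subgroups more sharply than the C1q genes or C5ar1 did. Resident cells had 1187 CPM (1125 to 1252) in ND and 1142 (1084 to 1202) in HFD. Foam cells had 97.1 CPM (66.4 to 137) in ND and 16.6 (11.1 to 23.8) in HFD. The resident-to-foam ratio was 12.2 (8.62 to 18.0) in ND and 68.9 (47.7 to 103) in HFD. A C4b UMI was found in 73.0% and 75.2% of resident cells but in 12.2% and 6.95% of foam cells. Among resident cells, C4b was higher in those with a UMI of Lyve1, at 1481 CPM against 560.02 in ND and 1557 against 593 in HFD, and likewise with Timd4, at 1607 against 917 and 1812 against 934 CPM. Both genes mark long-lived resident macrophages and are among the markers that define the resident group. The split by Lyve1 was not particular to C4b. C1qa was at 5990 CPM with and 4067 without a Lyve1 UMI in ND, and at 5719 and 3555 CPM in HFD. Cfb was at 53.4 and 2.72 CPM in ND, the latter from 1 UMI, and at 87.9 and 25.4 CPM in HFD. The other resident markers split C4b by Folr2 (1293 against 436 CPM in ND), Cbr2 (1247 against 813) and Cd163 (1282 against 1032), and F13a1 did not split it in ND (1189 against 1166 CPM).

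C4b of all macrophages stood at 874 CPM in ND and 471 in HFD (log2 HFD/ND -0.89, -0.997 to -0.78), while within resident cells the ratio was -0.06 (-0.16 to 0.05). Weighted as in ND the class ratio was -0.09. In foam cells the ratio was -2.55 (-3.33 to -1.78), from 32 ND and 29 HFD UMIs.

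**Figure D3:**
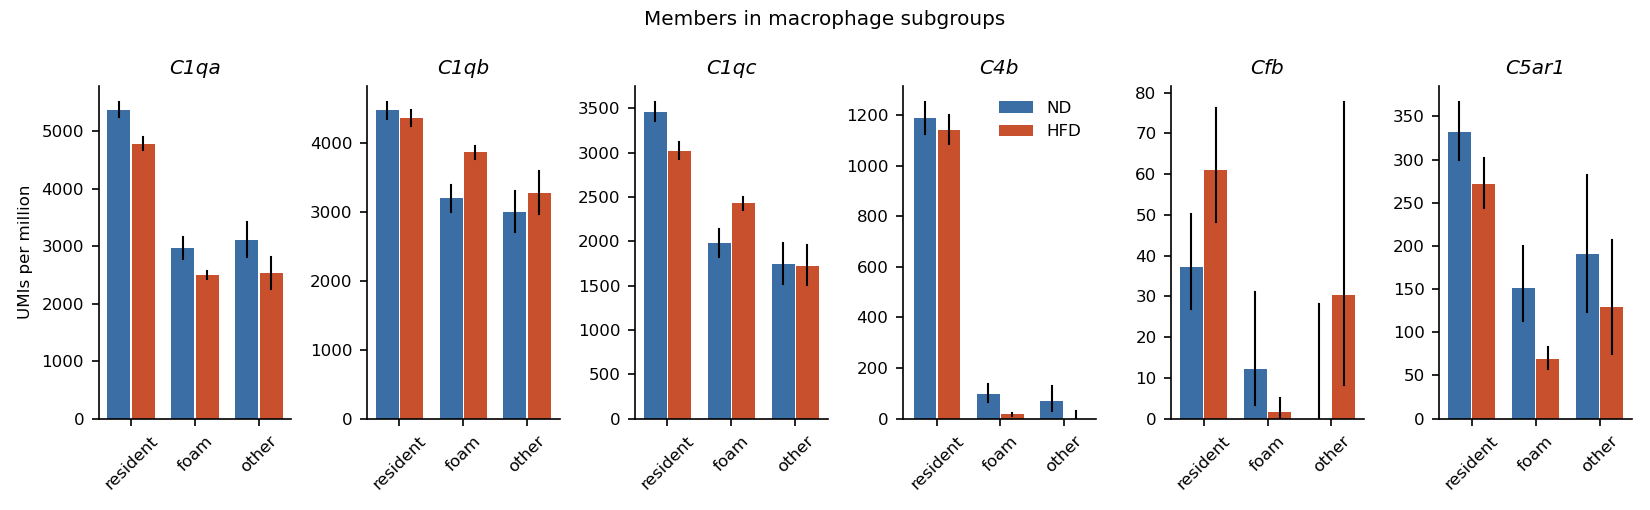
CPM of 6 complement genes in resident, foam and other macrophages, ND in blue and HFD in red, with exact 95% Poisson bars. Resident cells have more than foam cells in each panel. As a ratio, the gap is widest for C4b (1187 and 1142 against 97.1 and 16.6 CPM) and narrowest for C1qb.

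Cfb, the protease subunit of the alternative C3 convertase, followed C4b at a far lower level. It was at 37.3 CPM in ND and 61.0 CPM in HFD resident cells (log2 0.71, 0.16 to 1.28), against 12.1 CPM (4 UMIs) and 1.72 CPM (3 UMIs) in foam cells. C5ar1, the C5a receptor, was also higher in resident than in foam cells, at 332 against 152 CPM in ND (ratio 2.19, 1.63 to 3.001) and 272 against 69.2 CPM in HFD (3.93, 3.19 to 4.88). Over all macrophages C5ar1 was at 284 CPM in ND and 154 CPM in HFD (log2 -0.88, -1.07 to -0.70), and within resident cells the log2 ratio was -0.29 (-0.50 to -0.07). C3 had 143 CPM in ND and 32.9 CPM in HFD macrophages, carried in ND by few cells, with 169 UMIs in 35 of 244 resident and 60 in 9 of 49 foam cells. HFD resident cells had a C3 UMI in 43 of 234 (18.4%, against 14.3% in ND). Resident and foam cells differed within counting error, at 146 against 182 CPM in ND and 39.9 against 30.3 CPM in HFD. Summed fibroblast markers in macrophages moved the same way, at 139 CPM in ND and 52.9 CPM in HFD, with 9 and 10 of 10 markers found, and their part in the C3 value was not tested.

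Of 6 complement genes with enough UMIs to set foam against resident cells, 0 were at least 1.5-fold higher in foam cells in either library, where 13.9% of 3626 genes in ND and 17.7% of 5534 genes in HFD were. C1qa, C1qc, C4b and C5ar1, 4 of 6, were at least 1.5-fold lower in ND foam cells, beside 23.1% of all genes compared, and C1qa, C4b and C5ar1, 3 of 6, were lower in HFD foam cells, beside 20.9%. A gene was compared only with at least 50 UMIs over both groups and 4 in each, which left out C1ra, Cfb and Cfd.

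Fibroblasts were the main source of C3, with 74.3% of the C3 UMIs of kept cells in ND and 76.9% in HFD. C3 was at 2893 CPM (2839 to 2947) in ND and at 5821 CPM (5713 to 5932) in HFD fibroblasts, a log2 HFD/ND ratio of 1.01 (0.97 to 1.05). A C3 UMI was found in 70.3% (67.3 to 73.2) of 973 ND and in 96.3% (94.0 to 97.9) of 410 HFD fibroblasts, and after thinning to 1000 UMIs in 61.1% and 88.5%, with 38 ND cells too shallow. Endothelial cells, as the background, had a C3 UMI in 6.22% and 7.73% of cells at median depths of 3556.5 and 5336.5 UMIs, against 3770 and 4371 UMIs in fibroblasts. The middle ND fibroblast had 1609 CPM of C3 and the middle HFD fibroblast 4732 CPM.

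The 9 mesothelial cells of each library, from the lining of body cavities, had C3 at 5646 CPM (4976 to 6382) in ND and 4169 CPM (3545 to 4873) in HFD. In ND they stood above the fibroblasts and in HFD below them. Adipocytes came next with 1226 and 581 CPM in 20 and 7 cells.

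C4b was also higher in HFD fibroblasts, at 1268 CPM (1218 to 1320) against 548 CPM (525 to 572) in ND, a log2 ratio of 1.21 (1.13 to 1.30). Cfb was at 128 CPM (112 to 145) against 55.5 CPM (48.3 to 63.4), a ratio of 1.21 (0.93 to 1.48). C1ra, the protease that C1q activates first, was at 422 CPM (393 to 452) against 308 CPM (291 to 326), a ratio of 0.45 (0.32 to 0.58). The ratios of C3, C4b and Cfb stood apart from the median of all 8774 genes compared, which was -0.16. C3, C4b and Cfb, 3 of 7 complement genes compared in fibroblasts, were at least 1.5-fold higher in HFD, where 4.49% of genes were. C1qa and C1qb, 2 of 7, were at least 1.5-fold lower, where 15.1% of genes were, and they rest on 15 to 67 UMIs in a library. In ND, Inmt cells held 22 of the 63 C1qa UMIs in 3 cells, Cxcl14 cells 15 in 2 cells and unnamed fibroblasts 16 in 1 cell. With barcodes of several classes counted in the class with most of its markers, the ratios of C1qa and C1qb turned from -1.03 and -0.63 to 0.55 and 0.61.

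**Figure D4:**
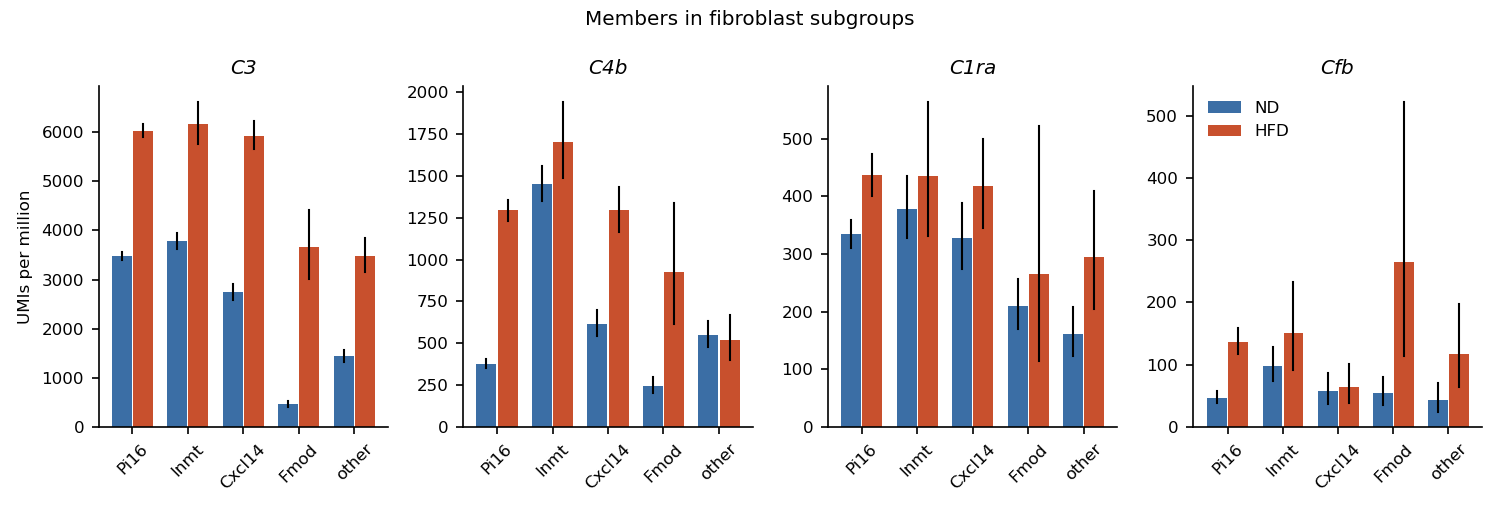
CPM of C3, C4b, C1ra and Cfb in fibroblast subgroups named by a leading marker, ND in blue and HFD in red, with exact 95% Poisson bars. C3 is higher in HFD in every subgroup, and ND Fmod cells (465 CPM) stand below the other ND subgroups. The HFD Fmod bars rest on 6 cells.

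Fibroblasts were further divided by marker sets led by Pi16, Inmt, Cxcl14 and Fmod. C3 was higher in HFD in each of them, at 6024 against 3483 CPM in Pi16 cells (log2 0.79, 0.74 to 0.84), 6173 against 3779 in Inmt cells (0.71, 0.59 to 0.83), 5929 against 2752 in Cxcl14 cells (1.11, 0.997 to 1.22) and 3671 against 465 in Fmod cells. The Fmod cells numbered 121 in ND and 6 in HFD. In ND, Pi16 cells had 7.49 times the C3 level of Fmod cells (6.53 to 8.62) and Inmt cells 8.12 times (7.05 to 9.40). With the HFD subgroups weighted as in ND, the log2 HFD/ND ratio of C3 was 0.93 and that of C4b 1.17.

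C4b was distributed otherwise. In ND it was highest in Inmt cells at 1453 CPM (1351 to 1560), against 376 CPM (350.5 to 403) in Pi16 cells, a ratio of 3.86. In HFD the same groups had 1705 (1490.1 to 1941) and 1294 CPM (1233 to 1357), a ratio of 1.32. The difference between diets was accordingly large in Pi16 cells (log2 1.78, 1.66 to 1.91) and small in Inmt cells (0.23, 0.01 to 0.45). A C4b UMI was found in 41.3% of ND and 79.0% of HFD Pi16 cells. Cfb in Pi16 cells was at 47.0 CPM in ND and 137 CPM in HFD (1.54, 1.18 to 1.91).

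Fibroblasts of the libraries also differed in their share of mitochondrial UMIs, 13.9% in ND and 22.3% in HFD at the median. Among cells with over 10% and up to 20%, C3 was at 2933 CPM in 672 ND and 6302 CPM in 131 HFD cells (log2 1.10), and among those with over 20% at 3622 CPM in 153 and 5715 CPM in 271 cells (0.66). At 10% or below, 8 HFD cells had 2335 CPM and 148 ND cells 2482 CPM (-0.09, -0.34 to 0.15), so there no difference was seen within counting error. Of these, 114 ND and 5 HFD cells were Pi16 cells, with C3 at 2637 and 4119 CPM (0.64, 0.34 to 0.93). C4b was higher in HFD in each of these ranges, at 665 against 381, 1539 against 566 and 1128 against 831 CPM. Summed erythroid markers, read as free RNA in fibroblasts, were at 215 CPM in ND and 1404 CPM in HFD with 5 of 7 markers found in both. Summed monocyte markers were at 202 and 936 CPM with 5 and 4 of 6 found. They were at 31.8 and 73.6 CPM in endothelial cells and 294 and 342 CPM in macrophages. ND adipocytes had 3012 CPM from 2 of these 6 markers. Whether the monocyte markers in fibroblasts were free RNA or RNA of the fibroblasts was not tested. The part of free RNA in the C3 and C4b values was not tested either.

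In endothelial cells, which line the vessels, complement genes were low and depended on the vessel type. Luminal cells, with markers of the arterial lining such as Vwf and Vcam1, numbered 227 in ND and 88 in HFD, and capillary cells 2086 and 1042. C4b was at 57.0 CPM (46.4 to 69.4) in ND and 230 CPM (197 to 266) in HFD luminal cells, 10.0 times (7.11 to 14.2) and 17.7 times (13.5 to 23.3) the capillary level of 5.70 and 12.99 CPM. It was found in 19.4% of ND and 42.0% of HFD luminal cells at median depths of 5698 and 7239.5 UMIs, against 2.44% and 4.03% of capillary cells. C1ra was at 72.4 CPM in ND and 42.6 CPM in HFD luminal cells, 20.8 times (14.1 to 31.5) and 9.36 times (5.49 to 16.1) the capillary level. Luminal cells also held summed fibroblast markers at 1683 and 1135 CPM, with 10 and 8 of 10 found, and C3 at 9.13 and 9.03 CPM. The part of fibroblast RNA in the C4b and C1ra values was not tested.

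C4b of luminal cells was higher in HFD (log2 2.01, 1.65 to 2.38), as it was in capillary cells (1.19, 0.67 to 1.71). C1qa, C1qb, C1qc and C4b, 4 of 8 complement genes compared in endothelial cells, were at least 1.5-fold higher in HFD, where 5.38% of genes were. The C1q genes among them were at 3.66 to 23.0 CPM, and the source of their UMIs was not tested. C1ra, Cfd and Cfb, 3 of 8, were at least 1.5-fold lower, where 14.9% of genes were. In macrophages 0 of 7 were at least 1.5-fold higher, where 9.38% of genes were, and C5ar1, C4b and C3, 3 of 7, were lower, where 17.4% of genes were.

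**Figure D5:**
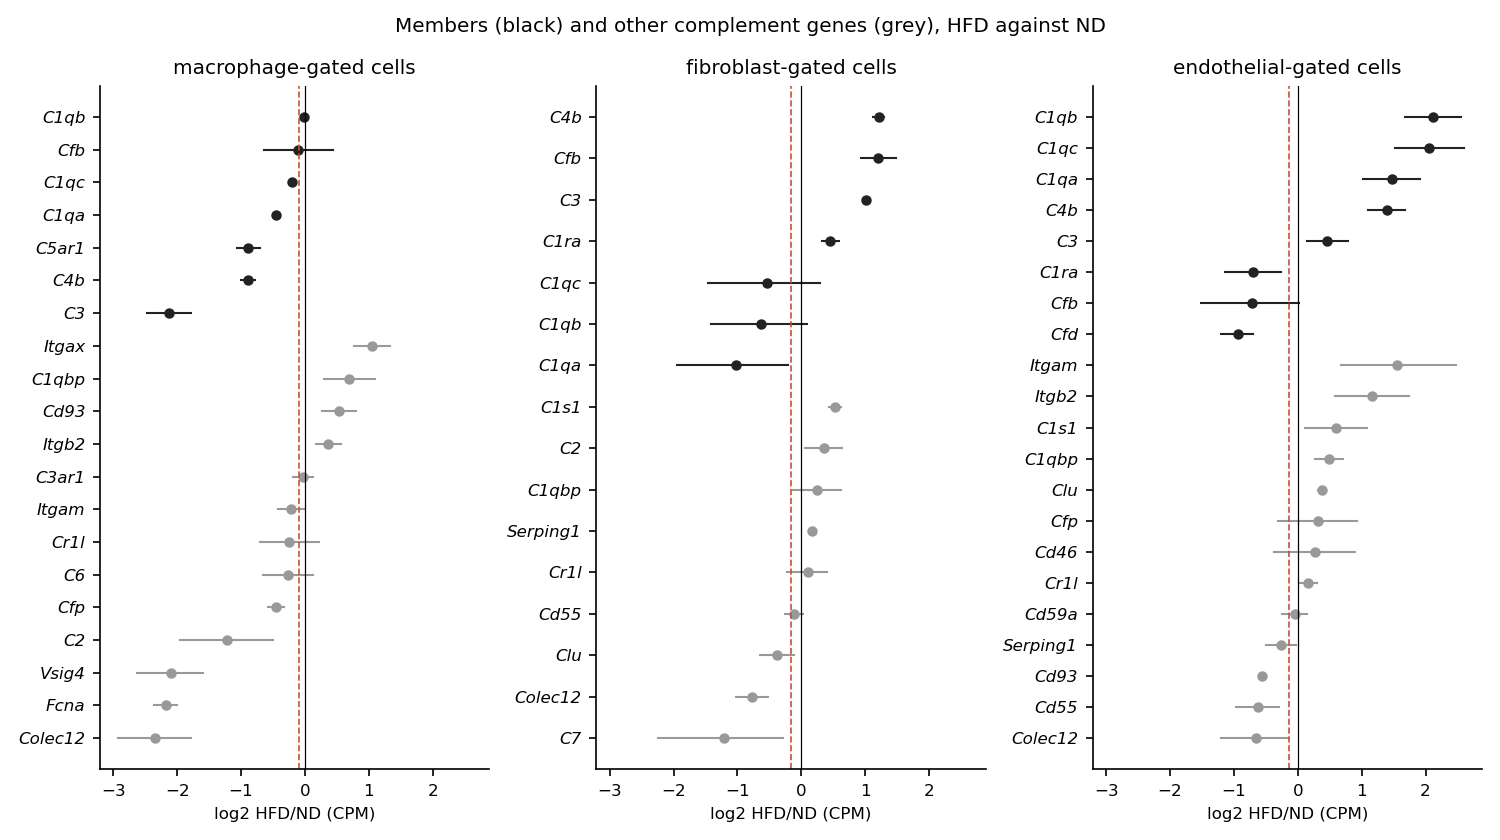
log2 HFD/ND of CPM for the complement genes described here (black) and other genes of the pathway whose values are reported (grey) in macrophages, fibroblasts and endothelial cells, with exact 95% conditional binomial bars. The dashed red line is the median of all genes compared. C3 and C4b lie right of 0 in fibroblasts (1.01 and 1.21) and left of 0 in macrophages (-2.12 and -0.89).

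Cfd, which encodes the adipocyte protease adipsin, was concentrated in a handful of cells. The 20 ND adipocytes had 19806 CPM (19318 to 20304), or 55.7% of the Cfd UMIs of kept cells, and the 7 HFD adipocytes 6885 CPM (6342 to 7462), or 64.1%. Each of these cells had a Cfd UMI. Mixed barcodes held another 38.4% of ND Cfd UMIs, at 863 CPM, against 31.2 CPM in HFD mixed barcodes. Adiponectin (Adipoq), another fat cell product, was at 1528 and 1370 CPM in the adipocytes, so that the UMIs of Cfd per UMI of Adipoq were 12.96 in ND and 5.03 in HFD. Ucp1, the uncoupling protein of brown fat, went the other way, at 146 CPM in ND and 3460 CPM in HFD adipocytes. Fat around the aorta can hold both white and brown cells, and diet and the makeup of these few cells cannot be told apart.

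Outside fat cells, Cfd was at 57.7 CPM in ND and 27.6 CPM in HFD capillary cells against 3.99 and 6.45 CPM in luminal cells. Adipoq, which endothelial cells should lack, was at 7.29 and 5.68 CPM in the same capillary cells, and Cfd per Adipoq there was 7.91 and 4.86, near the ratio of adipocytes in HFD and below it in ND. Over all endothelial cells the log2 HFD/ND ratio of Cfd was -0.94 (-1.20 to -0.69), and the part of adipocyte RNA in it was not tested.

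C5ar1 was highest in neutrophils in ND, at 545 CPM (431 to 679) in 75 cells, ahead of macrophages at 284 CPM (258 to 311). The 6 HFD neutrophils had 172 CPM (55.8 to 401), which overlaps the 154 CPM (140.5 to 168) of HFD macrophages. Monocytes followed with 88.4 and 123 CPM from 15 and 6 cells. Because neutrophils were few, macrophages held 63.2% and 69.4% of the C5ar1 UMIs and neutrophils 10.9% and 0.714%.

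C4b was highest in ND in 23 Schwann cells, the glia of peripheral nerves, at 1500.5 CPM (1190 to 1867), and only 1 such cell was found in HFD. It was found in 15 of these 23 cells. The order after them was macrophages, mesothelial cells, adipocytes and fibroblasts at 874, 662, 569 and 548 CPM. The interval of the 9 mesothelial cells (446 to 945 CPM) overlaps those of all the others but the Schwann cells, and adipocytes and fibroblasts overlap as well. The first place of Schwann cells in ND depended on the settings. Macrophages were highest with at most 10% mitochondrial UMIs and adipocytes with at most 20%. Mesothelial cells were highest with mixed barcodes counted in the class with most of its markers. In HFD fibroblasts came first at 1268 CPM, followed by macrophages at 471 and mesothelial cells at 343 CPM. C1ra was highest in fibroblasts in both libraries, with mesothelial cells at 243 and 290.3 CPM, whose intervals overlap those of fibroblasts.

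Of 44 other complement genes fixed as a list, 43 were in the counts and 21 had over 100 UMIs in gated cells. Among initiators, C1s1, the partner protease of C1r, was highest in fibroblasts among the larger classes. It was at 617 CPM in ND and 891 CPM in HFD fibroblasts (log2 0.53, 0.44 to 0.62). Mural cells also had C1s1, at 282 CPM (200 to 385) in 27 ND cells and 624 CPM (404 to 922) in 9 HFD cells. In HFD the mural interval overlaps that of fibroblasts (848 to 934 CPM). Fcna, ficolin A of the lectin pathway, was found mainly in macrophages, at 496 and 109 CPM against 2.07 CPM or less in the next class of each library, and within them in resident cells at 691 and 266 CPM against 3 and 5 UMIs in foam cells. The scavenger collectin Colec12 was highest in fibroblasts at 152 and 89.0 CPM. Of initiators compared, 2 of 2 in macrophages (Fcna and Colec12), 1 of 2 in fibroblasts (Colec12) and 1 of 2 in endothelial cells (Colec12) were at least 1.5-fold lower in HFD, where 17.4%, 15.1% and 14.9% of all genes were. C1s1 was 1.52-fold higher in HFD endothelial cells, at 6.71 and 10.2 CPM.

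Among components, C2 was at 67.9 and 86.9 CPM in fibroblasts, where it overlaps Gm20547. Properdin (Cfp), which stabilises the alternative convertase, was at 596 and 435 CPM in macrophages, and at 752 and 739 CPM in resident against 164 and 233 CPM in foam cells. C6, a part of the membrane attack complex, was at 56.4 and 46.8 CPM in macrophages. Of the other genes of the terminal pathway, C7 had 69 UMIs in gated cells, Hc, which encodes C5, had 4, and C8a and C9 had 0.

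Among regulators, 0 of 2 genes compared in macrophages, 0 of 5 in fibroblasts and 0 of 7 in endothelial cells were at least 1.5-fold higher in HFD. Of all genes compared, 9.38%, 4.49% and 5.38% were, so with so few regulators a count of 0 is near these shares. This count does not cover genes lower in HFD, which are counted over the whole list below. Serping1, the inhibitor of C1r and C1s, was abundant in fibroblasts at 2165 and 2436 CPM (0.17, 0.12 to 0.22). Clusterin (Clu) was highest in endothelial cells at 376 and 489 CPM, and there mainly in luminal cells, at 2271 and 3701 CPM against 31.9 and 84.8 CPM in capillary cells. The membrane regulator Crry (Cr1l) was also highest in endothelial cells at 90.6 and 101 CPM.

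Among receptors, C3ar1, for the fragment C3a, was a macrophage gene at 310 and 303 CPM. Unlike C5ar1 it hardly separated resident from foam cells, at 335 against 288 CPM in ND (ratio 1.16, 0.93 to 1.47) and 308 against 306 CPM in HFD (1.01, 0.88 to 1.147). Vsig4, a macrophage receptor for C3b, was at 63.8 CPM in ND and 14.9 CPM in HFD macrophages. Cd93, named after an early report as a C1q receptor, was an endothelial gene at 1034 and 701 CPM. Over the whole list, 2 of 14 genes compared in macrophages were at least 1.5-fold higher in HFD and 5 lower, 0 of 10 in fibroblasts were higher and 3 lower, and 3 of 14 in endothelial cells were higher and 3 lower. The shares of all genes compared were 9.38% higher and 17.4% lower in macrophages, 4.49% and 15.1% in fibroblasts, and 5.38% and 14.9% in endothelial cells.

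Genes most like a complement gene were sought by the Pearson correlation of log2(CPM + 10) over 10 points, the endothelial, fibroblast, macrophage, dendritic and T cells of both libraries. The points of 1 library share its depth and free RNA, so these correlations are descriptions. Markers of any class or subgroup were left out of the search, so macrophage markers such as Lyve1 could not appear. For C1qa the 5 closest of 11520 genes were C5ar1, Msr1, C1qb, C3ar1 and Cd209b, with r from 0.992 to 0.993. For C5ar1 they were Tlr7, Cd209f, Msr1, Cd209b and Cd209g, with r from 0.995 to 0.997. For C3 they were Ildr2, Lgi4, Prg4, Ank2 and Sbsn, with r from 0.987 to 0.993. For C4b, which both macrophages and fibroblasts had, they were Epb41l1, Ifi204, Glul, Ptgr1 and Ang at 0.971 to 0.975. Cfd was closest to Phf12, Atxn7, H2-Q4, Igtp and Sertad2 at 0.945 to 0.955, but adipocytes, which held most Cfd, are not among the points.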

How the data were processed

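Cells of the aortic arch of Apoe-/- mice were studied in 1 library per diet, each of 2 pooled aortas. The authors ran Cell Ranger and deposited its raw UMI counts for each gene and barcode. Their processing notes name mm10, bcl2fastq, UMI-tools, Seurat 3.2.0 and R 4.0.0. The version of Cell Ranger, the kit's chemistry, the gene annotation and the strand setting are not stated in the sources used. The joined table of both libraries was not used. No column of other samples was present (0).

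Barcodes were kept with 200 or more genes, 200 or more UMIs and a mitochondrial share up to 30%. This left 5416 in ND and 2739 in HFD, which are the numbers of cells the authors report. A cell was put in 1 of 16 classes when at least 3 of the 6 to 10 markers of that class had a UMI and it had at least 2 times as many as for any other class, and subgroups needed at least 2 UMIs of their markers. Barcodes with at least 3 markers of a class, but fewer than 2 times as many as for the next class, stayed apart as mixed. This was the only treatment of doublets. Levels are CPM over the summed UMIs of a class, with exact Poisson intervals. Shares have exact Clopper-Pearson intervals, and ratios of levels have conditional binomial ones, all at 95%. UMIs count molecules, so levels were not divided by gene length. No test was run, since each diet has 1 library. Genes were called different at 1.5-fold. Values were named for all 9 genes, for their 5 closest genes, and for listed pathway genes with at least 100 UMIs that were 2-fold over the next class in both libraries or named in the list. Values of 1 listed gene are not reported here. The genes and lists were chosen with earlier results of these data known. Other settings tried were the mitochondrial limit, the gates, Scrublet scores, the scaling, weights per cell and thinning to 1000 UMIs. Scripts were tested on simulated data. Python 3.11.15, numpy 2.4.6, scipy 1.17.1, pandas 2.3.3, matplotlib 3.10.9 and scanpy 1.11.5 were used.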

Additional observations from a re-analysis of the deposited data

Results flagged for a closer look

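Several genes differed between diets in opposite directions in different classes, as log2 HFD/ND of CPM. None of these differences between classes was tested, since each diet has 1 library. C3 was at 1.01 in fibroblasts and 0.46 in endothelial cells but at -2.12 in macrophages, where 35 of 244 ND resident and 9 of 49 ND foam cells held nearly all ND UMIs. C4b was at 1.21 in fibroblasts and 1.39 in endothelial cells but at -0.89 in macrophages, and within resident macrophages it was at -0.06. C1ra was at 0.45 in fibroblasts and -0.69 in endothelial cells. C1qa was at 1.47 in endothelial cells, -0.46 in macrophages and -1.03 in fibroblasts, and C1qc at 2.06 in endothelial cells and -0.19 in macrophages. The endothelial and fibroblast values of the C1q genes rest on few UMIs, from 15 to 116 of a gene in a library for C1qa.

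Barcodes left out by the filter also held complement UMIs. The 9 genes summed to 861 CPM in left-out ND barcodes, against 2122 CPM in kept cells, and to 1029 CPM in left-out HFD barcodes, against 3714.5 CPM in kept cells. Left-out barcodes held 7.81% of the UMIs of these genes in ND and 28.0% in HFD.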

How the results depend on the processing

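No paired analysis was possible because each diet has 1 library, so the groups share fewer than 2 replicate numbers and no result comes from a test. With at most 10% mitochondrial UMIs, where 8 HFD fibroblasts remain, the log2 HFD/ND ratio of C3 in fibroblasts turned from 1.01 to -0.088, that of C1ra in fibroblasts to -0.17 and that of C1qc in macrophages to 0.071, that of C4b in fibroblasts was 0.80 and that of the summed C1q genes in macrophages -0.17. The C3, C4b and C1q ratios were 1.09, 1.51 and -0.30 at a limit of 20%, 1.15, 1.35 and -0.076 with scaling by the median of ratios, and 1.19, 1.39 and -0.19 without mitochondrial, haemoglobin and ribosomal genes. Without a mitochondrial limit C3 and C4b were at 0.90 and 1.07, and as means of the CPM of each cell at 1.07 and 1.09. C4b was at 1.05 after thinning. With mixed barcodes counted in their top class, C3 was at 0.93, the C1q genes at -0.19 in macrophages, and C1qa and the C1q sum of fibroblasts turned to 0.55 and 0.61. With the highest 6% of Scrublet scores left out, the C1q genes were at -0.26 in macrophages and turned to 0.72 in fibroblasts. With ND weights of the subgroups, chosen after seeing the data, C3 was at 0.93 and the C1q genes at -0.089. Over the 3 classes, 7 ratios were at least 1.5-fold higher in HFD and 8 lower. Of all genes compared, 9.38%, 4.49% and 5.38% were higher in macrophages, fibroblasts and endothelial cells, and 17.4%, 15.1% and 14.9% lower. Shares of all genes were not computed under the other settings. The counts were 4 and 4 at 10% mitochondrial UMIs and 4 and 3 after thinning, and 5 were lower with mixed barcodes counted and with means per cell. The cause of these changes was not tested. The highest class of each gene and library, 18 in all, was the same for 12 to 18 of them, and the C1qa share of HFD foam minus resident cells stayed between -12.0 and -10.6 points, but had no value at the 10% limit, where no HFD resident cell remains. Of the ratios of the other genes and classes under all settings, 171 moved by less than their counting interval, 43 moved further and 5 whose interval leaves out 0 turned, as given above. Values whose interval holds 0 also changed sign: with mixed barcodes counted C1qb and C1qc in fibroblasts reached 0.61 and 0.70, with the median of ratios C1qb in macrophages reached 0.13, and as a mean per cell Cfb in macrophages reached 0.40. Scrublet's own threshold called 5 ND and 7 HFD cells.

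One library per diet limits every comparison: differences between diets, mice, dissections and capture cannot be told apart. Small classes (20 and 7 adipocytes, 9 mesothelial cells each) give levels of few cells, and low genes such as Cfb in foam cells rest on 3 or 4 UMIs.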
